A study of Mus musculus with 4 samples.

Results

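Liver RNA from aging diabetic mice given astragalus polysaccharide (APS) together with metformin was compared with liver RNA from aging diabetic mice given metformin alone. The rule for the 2 arrays used their treatment labels and no measured value, but the comparison was chosen with earlier results of these data known. They are 2 of the 4 arrays of the series. Each group holds 1 array. Nothing could be tested over replicate mice, and "higher" and "lower" describe these 2 arrays only. Of 23462 genes with a probe, 16096 were compared, being those whose signal was well above background on at least 1 of the 2 arrays. The question is how the liver mRNA profile differs when APS is added to metformin.

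All groups were whole livers of male mice, taken after a fast, with Trizol-extracted total RNA labelled with Cy5 on one-colour expression arrays. The other 2 arrays, from natural aging mice and from aging diabetic mice without treatment, were used here only to set levels side by side. The sample titles carry 60 days, and what that time counts from is not stated. Strain, age, the way diabetes was brought about, and the doses and routes of metformin and APS are not given in the sources used here, nor whether an array holds the RNA of a single mouse or of pooled mice. No liver given APS without metformin was analysed here.

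Metformin is a biguanide drug that lowers blood glucose, in large part by restraining glucose output from the liver; it enters hepatocytes through organic cation transporters, acts on mitochondrial respiration and activates the energy sensor AMPK. APS is a polysaccharide fraction from the root of Astragalus, a medicinal plant, and has been studied for effects on immune cells and on glucose handling. Whole liver RNA comes mostly from hepatocytes, which make glucose, bile acids and plasma proteins, with smaller shares from resident Kupffer macrophages, recruited leukocytes, endothelium, stellate cells and bile duct cells.

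Levels are log2 signals less each array's 75th percentile, so 0 is the 75th percentile of that array. A difference is the level on the APS plus metformin array minus the level on the metformin array, and its error combines the errors that the scanner software gives for both spots, which cover measurement and not mice. All 10 hepatocyte markers that could be compared were well above background on both arrays, and none differed by 2-fold. Albumin (Alb), the main plasma protein, stood at 4.23 in natural aging, 4.11 in aging diabetes, 3.78 with metformin and 4.12 with APS plus metformin. The tissue label was thus checked against its markers, whereas no gene checks the treatment labels. On the metformin array 37402 of 59305 spots were well above background, against 35743 on the APS plus metformin array, and no spot carried a saturation flag.

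Lower levels on the APS plus metformin array outnumbered higher ones. At least 2-fold, 1970 genes were lower and 381 were higher, which is 12.2% and 2.37% of the genes compared. Among these, 1464 lower and 293 higher genes were well above background on both arrays, and the rest are bounds from genes measured on 1 array only. At 3-fold the counts were 760 lower and 114 higher, and more than 10-fold on both arrays 21 genes were lower and 2 were higher. The median difference over all genes compared was -0.02, with the middle of the genes between -0.49 and 0.29 (25th and 75th percentiles) and a 5th percentile of -1.55 against a 95th of 0.75. At 1.5-fold 3498 genes were lower and 1407 were higher, so the excess of lower genes was present at smaller sizes too. The lead of lower over higher genes held when each array's median was subtracted instead, with 1523 lower and 608 higher genes. Of 573 further probes for the genes counted as higher or lower, 85.51% differed in the same direction, against 70.25% of the further probes of all genes, and 45.72% were past 2-fold the same way.

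**Figure D1:**
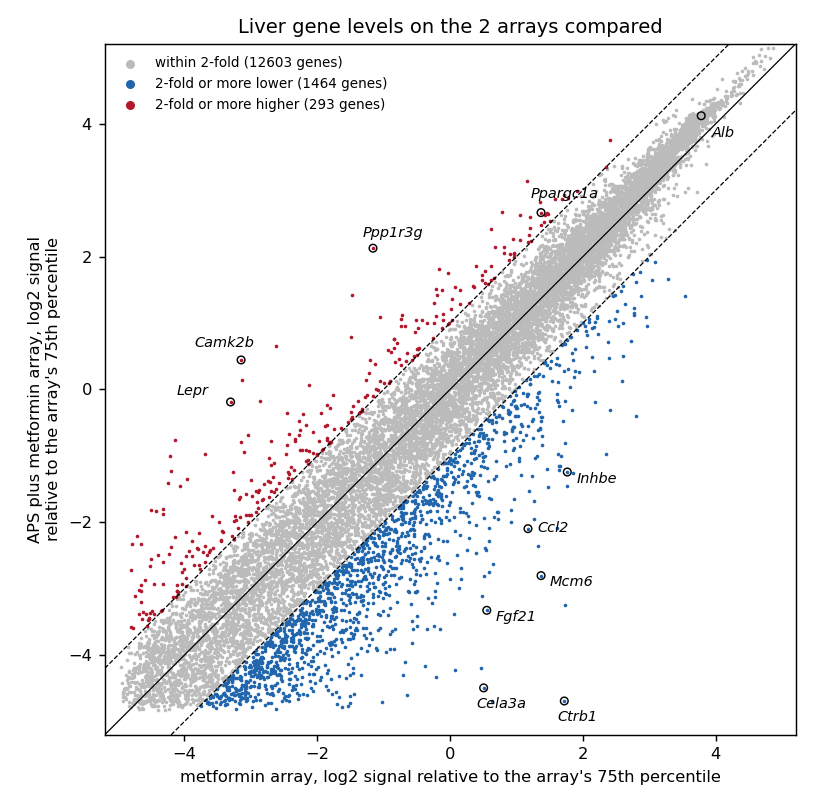
Each point is 1 of the genes well above background on both arrays, with its log2 level relative to the array's 75th percentile on the metformin array (x axis) and on the APS plus metformin array (y axis); the solid line marks equal levels and the dashed lines 2-fold. The 1464 lower genes (blue) outnumber the 293 higher genes (red), and Ctrb1, 85.0-fold lower, lies farthest below the line.

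The brightest genes differed little and in 1 direction. Of 1205 genes with a mean level of 3 or more, none was 2-fold lower and 0.083% were 2-fold higher, and their median difference was 0.26. Of 3444 genes with a mean level between -3 and -1, 19.3% were 2-fold lower and their median was -0.21. Quantile normalization, which gives the arrays 1 common distribution, brought the median of the brightest genes to -0.04. Whether the scanner signal stays proportional to RNA at these levels was not tested. Small positive medians of bright gene groups are therefore read here against 0.26 and not against 0. Counts within the gene lists that follow stand beside 12.2% lower and 2.37% higher over all genes compared.

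**Figure D2:**
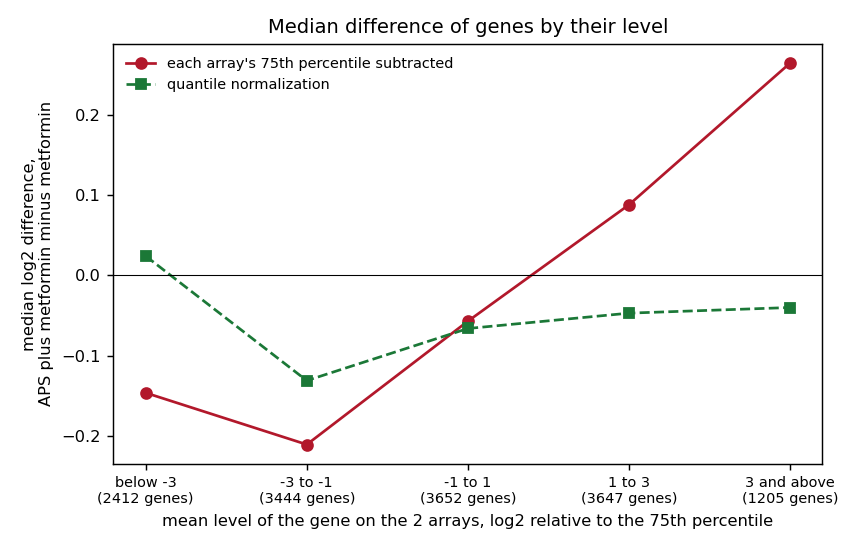
Median log2 difference (y axis, APS plus metformin minus metformin) of genes well above background on both arrays, by their mean level (x axis, log2 relative to the 75th percentile), after subtraction of each array's 75th percentile (circles) or quantile normalization (squares). With the 75th percentile the median runs from -0.21 in the second band to 0.26 in the brightest, and with quantile normalization the brightest band is at -0.04.

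Genes of recruited macrophages were lower on the APS plus metformin array as a group. Of 12 compared monocyte and recruited macrophage markers, 9 were at least 2-fold lower, none was higher and the median difference was -2.62. Chil3, a chitinase-like protein of alternatively activated macrophages, had levels of -1.53 in natural aging, -0.97 in aging diabetes, 0.48 with metformin and -3.11 with APS plus metformin. Ccr2, the receptor that draws monocytes towards Ccl2, measured -1.71, -2.89, -0.23 and -3.03 in the same order. Trem2, a lipid-sensing receptor of macrophages in fatty liver, measured -2.13, -0.81, 0.97 and -1.65. All 3 were highest on the metformin array, and their differences between the treated arrays were -3.58 ± 0.19, -2.80 ± 0.18 and -2.61 ± 0.17. Ms4a7, a membrane protein of macrophages, was 10.1-fold lower, S100a4, a calcium-binding protein of motile cells, 7.68-fold lower, and Gpnmb, a glycoprotein of lipid-laden macrophages, 6.18-fold lower. The chemokine receptor Cx3cr1 was at least 15.7-fold lower, being not well above background on the APS plus metformin array, while its other probe gave -1.24. Ly6c2, which marks inflammatory monocytes, differed by -0.50, Cd9 by -0.44 and the integrin Itgam by 0.54, so 3 members stayed within 2-fold.

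Resident Kupffer cell markers differed less. Of 10 members 3 were at least 2-fold lower, none was higher and the median was -0.63. The 3 were complement component C6 at -1.68, the folate receptor Folr2 at -1.66 and Adgre1, a macrophage surface receptor gene, at -1.5. Clec4f, a lectin that defines Kupffer cells, measured 3.47 in natural aging, 2.97 in aging diabetes, 2.63 with metformin and 2.43 with APS plus metformin. Vsig4, a complement receptor of these cells, differed by -0.49, Timd4, a receptor for dying cells, by -0.76, and the haemoglobin scavenger receptor Cd163 by 0.08. Summed in linear units of the 75th percentile over the 9 markers usable on all arrays, which leaves out Timd4, Kupffer cell markers came to 51.1 in natural aging, 30.2 in aging diabetes, 40.2 with metformin and 25.9 with APS plus metformin. In whole liver RNA fewer cells of a type and less RNA per cell cannot be told apart.

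Of 15 T and NK cell genes compared, 11 were at least 2-fold lower, none was higher and the median was -1.57. Nkg7, a granule protein of cytotoxic lymphocytes, measured -1.25 in natural aging, -3.44 in aging diabetes, 0.58 with metformin and -2.09 with APS plus metformin. Cd3g, a chain of the T cell receptor complex, measured -2.82, -4.23, -1.09 and -3.38. The metformin array was the highest for both, with differences of -2.67 ± 0.17 and -2.29 ± 0.20. The granzyme Gzma was 5.78-fold lower, the T cell receptor chain Cd3d 4.17-fold and the NK receptor Klrd1 3.57-fold. Perforin (Prf1) at 0.73 and the co-receptor Cd4 at 0.48 lay in the opposite direction within 2-fold. The summed level of this list was 4.07 in natural aging, 2.47 in aging diabetes, 7.44 with metformin and 3.51 with APS plus metformin. Of 6 B and plasma cell markers 3 were lower, of 8 neutrophil markers 3 and of 7 dendritic cell markers 3, with none higher in any of these lists and medians of -0.99, -0.62 and -0.78. Without bounds the median of the B and plasma cell list was -0.34 and that of the dendritic cell list -0.40. Among them S100a9, a neutrophil calcium-binding protein, was 2.68-fold lower, and Csf3r, the receptor for granulocyte colony-stimulating factor, differed by 0.34. The 2-fold differences of the B cell genes Cd79b and Mzb1, at -1.04 and -1.07, came to -0.97 and -0.89 after quantile normalization.

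Chemokine genes, which encode signals that draw leukocytes into tissue, stood lower as well. Of 18 cytokine and chemokine genes compared, 9 were at least 2-fold lower, none was higher and the median was -0.99. Every difference was negative, but 4 are bounds from genes dim on the APS plus metformin array, which cannot come out positive. Ccl2, the main attractant of Ccr2-bearing monocytes, measured -0.86 in natural aging, -2.75 in aging diabetes, 1.17 with metformin and -2.10 with APS plus metformin. Ccl5, an attractant of T cells, measured 0.04, -0.94, 2.41 and -0.31. Both were highest on the metformin array, with differences of -3.27 ± 0.17 and -2.72 ± 0.16. Ccl3 was 8.96-fold lower, Ccl4 6.83-fold, Cxcl9, an interferon-induced attractant, 2.88-fold, and Ccl7 at least 10.2-fold. The classical inflammatory cytokines differed less: Il1b by -0.05 ± 0.16 and Tnf, close to background, by -0.44 ± 0.33. Il6 was not well above background on the APS plus metformin array.

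Toll-like receptors, which recognise microbial products and start such cytokine programmes, showed 8 lower and 1 higher of 22 genes compared, with a median of -0.56, or -0.28 over genes well above background on both arrays, -0.32 after normexp correction and -0.33 with the mean of a gene's probes. Tlr1 was 6.62-fold lower, Tlr7 3.95-fold, Tlr6 3.22-fold, Tlr8 2.94-fold, Tlr2 2.78-fold and Tlr13 2.68-fold. Tlr4, the receptor for bacterial endotoxin, measured -1.48 in natural aging, -1.34 in aging diabetes, -0.72 with metformin and -1.87 with APS plus metformin, a difference of -1.15 that came to -0.99 when each array's median was subtracted. Tlr12 was the member that stood higher, 5.13-fold, at -3.15 with metformin and -0.79 with APS plus metformin. The shared adaptor Myd88 differed by -0.20, its partner Traf6 by 0.33 and the transcription factor Nfkb1 by 0.38.

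Interferon-stimulated genes, induced through STAT and IRF transcription factors at a promoter element known as the interferon-stimulated response element, were lower for 11 of 20 genes compared, with none higher and a median of -1.21. Isg15, a ubiquitin-like modifier, measured 1.44 in natural aging, 2.13 in aging diabetes, 2.94 with metformin and 1.09 with APS plus metformin. Oas1a, a sensor of double-stranded RNA, measured 0.64, 0.53, 2.16 and 0.27, and the related Oasl2 measured -1.17, -0.82, 0.91 and -1.81. In all 3 the metformin array was the highest and the APS plus metformin array the lowest of the 4. The differences were -1.85 ± 0.16, -1.89 ± 0.16 and -2.73 ± 0.17. Ifi44 was 5.82-fold lower, Oasl1 5.19-fold, Ifit2 2.84-fold and Oas2 at least 5.66-fold. Rsad2, an antiviral enzyme, was 2.24-fold lower. The transcription factors Stat2 and Irf7 differed less, by -0.67 and -0.88, and Bst2 and Iigp1, at -0.12 and 0.12, hardly at all.

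The 250 bases before the start of these genes, from RefSeq on GRCm38.p6, were searched on both strands for the core of the response element, TTTC followed by 2 bases of any kind and TTTC. It was found for 7 of the 14 compared members that have a promoter in the table (Bst2, Gbp3, Ifit3, Isg15, Oas1a, Rsad2 and Stat2), against 3.04% of all 27025 promoters of that length. Of the 8 members that were 2-fold lower and have a promoter, 4 hold it. The promoters of Isg15 and Oas1a are shown because they hold several overlapping copies close to the start. Isg15 lies at chr4:156200819-156201068 and Oas1a at chr5:120907526-120907775, both on the minus strand, printed 5′ to 3′ along the gene with the matches in capitals.
Isg15: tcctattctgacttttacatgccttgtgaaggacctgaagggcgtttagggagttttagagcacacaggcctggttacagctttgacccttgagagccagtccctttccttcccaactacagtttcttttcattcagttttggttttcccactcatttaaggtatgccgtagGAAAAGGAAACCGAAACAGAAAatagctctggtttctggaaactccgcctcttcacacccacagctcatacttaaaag
Oas1a: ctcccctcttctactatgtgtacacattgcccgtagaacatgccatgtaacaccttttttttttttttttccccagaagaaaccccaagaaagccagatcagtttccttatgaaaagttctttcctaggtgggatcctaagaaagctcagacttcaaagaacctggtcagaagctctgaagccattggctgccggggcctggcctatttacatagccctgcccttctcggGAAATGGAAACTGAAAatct
Isg15 holds 3 overlapping matches, the farthest beginning 78 bases before the start, and Oas1a holds 2, the farthest beginning 20 bases before it. Both read as the opposite strand of the motif. A match describes the letters in this window and no more, and Bst2 holds one while differing by -0.12.

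Of 15 antigen presentation genes compared, 5 were 2-fold lower, none was higher and the median was -0.58. Lower were Ciita, the activator of class II genes, by -1.59 with -0.45 by its other probe, the class II peptide exchange chains H2-DMb1 and H2-DMa by -1.16 and -1.13, the immunoproteasome subunit Psmb9 by -1.10 and the peptide transporter Tap1 by -1.04. With each array's median subtracted, H2-DMb1, H2-DMa, Psmb9 and Tap1 all came within 2-fold, the last 3 at -0.96, -0.93 and -0.88, which leaves Ciita. Class I genes carried by all liver cells differed by 0.17 for H2-K1 and 0.27 for B2m.

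**Figure D3:**
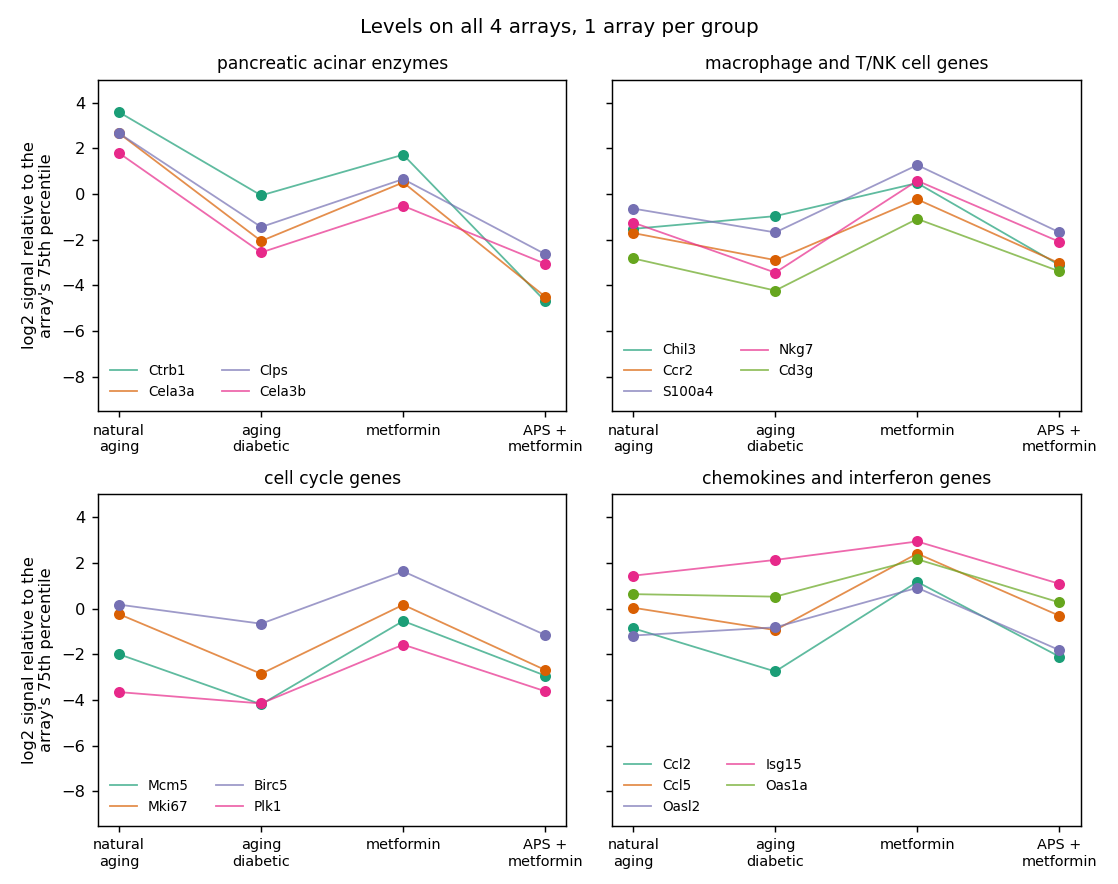
Log2 level relative to the array's 75th percentile (y axis) on each of the 4 arrays (x axis, 1 array per group) for genes of 4 kinds, with lines joining the points of 1 gene. Ccl2 stands at 1.17 with metformin and -2.10 with APS plus metformin, and the acinar enzyme Ctrb1 runs from 3.58 on the natural aging to -4.69 on the APS plus metformin array.

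Cell cycle and DNA replication genes were lower in number and in size. Of 24 compared, 16 were at least 2-fold lower, none was higher and the median was -1.52. Mki67, the proliferation antigen, measured -0.24 in natural aging, -2.85 in aging diabetes, 0.17 with metformin and -2.68 with APS plus metformin. Birc5, the mitotic protein survivin, measured 0.18, -0.66, 1.63 and -1.15. Mcm5, a subunit of the replicative helicase, measured -2.0, -4.19, -0.54 and -2.93. All 3 were highest on the metformin array, and the APS plus metformin array lay nearer to the aging diabetic than to the metformin array, with differences of -2.85 ± 0.18, -2.78 ± 0.16 and -2.39 ± 0.19. Mcm6, a partner of Mcm5, was 18-fold lower by its brighter probe and -0.94 by its other probe. By their brightest probes cyclin B1 (Ccnb1) was at least 17.2-fold lower and topoisomerase Top2a at least 13-fold, both not well above background on the APS plus metformin array. The 2 other probes of Ccnb1 gave smaller differences of -1.88 and -1.38, and the other probe of Top2a gave -2.75. Cdkn3, a phosphatase of cycling cells, was 17.5-fold lower with -3.81 by its other probe. The mitotic kinase Plk1 was 4.12-fold lower, cyclin A2 (Ccna2) 3.33-fold and the nucleotide enzyme Rrm2 2.70-fold. Not every member followed: Pcna, the replication clamp, differed by 0.21, cyclin E1 (Ccne1) by 0.85, and Cdc20 by 0.07 with -3.30 by its other probe. Summed levels of leukocyte lists, with metformin and then with APS plus metformin, were 7.44 and 3.51 for T and NK cells, 47.2 and 35.4 for monocytes and recruited macrophages, and 1.06 and 0.811 for B and plasma cells. They were 29.6 and 28.3 for neutrophils and 7.33 and 8.83 for dendritic cells. Bright members weigh most in such sums: the dendritic cell marker Siglech stood at 2.72 and 3.09, and the neutrophil marker Csf3r at 3.47 and 3.80. The median differences of these neutrophil and dendritic cell lists were -0.62 and -0.78. The part of leukocytes in the cell cycle difference was not tested.

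E2F factors bind the promoters of replication genes at TTTCGCGC and TTTGGCGC, and the 250 bases before the start were searched for both on both strands. Mcm5 and Mcm6 hold a match, 2 of the 21 compared members with a promoter in the table, against 0.673% of all 27025 promoters and 1.08% of those of compared genes. They are shown for the way the matches overlap. Mcm5 lies at chr8:75109259-75109508 on the plus strand and Mcm6 at chr1:128359706-128359955 on the minus strand of GRCm38.p6, with matches in capitals.
Mcm5: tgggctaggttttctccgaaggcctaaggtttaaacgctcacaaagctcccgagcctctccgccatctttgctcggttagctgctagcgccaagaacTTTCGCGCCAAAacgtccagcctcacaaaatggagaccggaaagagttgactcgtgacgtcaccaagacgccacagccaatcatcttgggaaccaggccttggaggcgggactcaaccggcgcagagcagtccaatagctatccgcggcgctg
Mcm6: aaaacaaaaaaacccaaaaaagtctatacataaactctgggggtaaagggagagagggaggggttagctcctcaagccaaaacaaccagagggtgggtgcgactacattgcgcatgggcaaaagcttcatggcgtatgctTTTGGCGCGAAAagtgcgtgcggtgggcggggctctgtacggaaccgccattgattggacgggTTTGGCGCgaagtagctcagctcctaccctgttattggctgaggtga
In Mcm5 the 2 matches, 1 on each strand, overlap and the first begins 153 bases before the start. Mcm6 has the same arrangement beginning at 110 bases and a further TTTGGCGC at 47 bases. No match in a window says only that these letters are not there.

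Genes of growth arrest stood lower together with those of division. Of 21 p53 targets and senescence genes 8 were at least 2-fold lower, none was higher and the median was -0.70. Cdkn1a, the p21 cell cycle inhibitor, measured 0.45 in natural aging, 1.15 in aging diabetes, 1.63 with metformin and 0.11 with APS plus metformin, and its other probe gave -1.17 against -1.52. The cell cycle inhibitor Cdkn2b was 4.73-fold lower, the death factor Pmaip1 4.04-fold and Gadd45a, a DNA damage gene, 2.91-fold. Lmnb1, a nuclear lamina gene known to be lost in senescence, was also lower, by -1.42. Trp53 itself differed by 0.43 and Bax by -0.13. Mdm2 differed by 0.07 with -1.64 by its other probe.

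Immediate-early transcription factors, which are induced within minutes of a stimulus, were 2-fold lower for 7 of 16 genes compared, with none higher and a median of -0.85. Egr1 measured 0.89 in natural aging, -2.73 in aging diabetes, 0.15 with metformin and -1.85 with APS plus metformin, a difference of -2.0 ± 0.17. Klf6 was 3.09-fold lower, Atf3 2.91-fold, Fosb 2.51-fold, Jun 2.43-fold, Nr4a1 2.35-fold and Egr2 at least 6.95-fold. Fos, at -0.99, did not reach 2-fold, and Myc differed by 0.62 in the other direction.

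Matrix genes of stellate cells and fibroblasts were 2-fold lower for 8 of 19 genes compared, with none higher and a median of -0.89. Col1a1, the main collagen of scar, measured -0.49 in natural aging, -1.21 in aging diabetes, 0.70 with metformin and -1.85 with APS plus metformin. Its difference was -2.55 ± 0.05, and its 2 other probes gave -3.52 and -2.55. Col3a1 was 3.12-fold lower, Timp1, an inhibitor of matrix breakdown, 3.66-fold, Loxl2, a collagen crosslinker, 2.55-fold, and Mmp2, a gelatinase, 2.22-fold. Col6a3 at -1.28 had -0.12 by its other probe. Acta2, the actin of activated stellate cells, differed by 0.04, decorin (Dcn) by 0.08 and fibronectin (Fn1), which hepatocytes also make, by 0.24. Sinusoidal endothelial markers, by contrast, had 1 of 11 members lower, the hyaluronan receptor Lyve1 at -1.09, which came to -0.93 with each array's median subtracted. Their median of 0.06 turned to -0.14 after quantile normalization.

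Bile duct and fetal genes completed this side of the comparison. Of 7 cholangiocyte markers compared 3 were 2-fold lower and none higher: the mucin Muc1 at -1.99, keratin 19 (Krt19) at -1.93 and the adhesion molecule Epcam at -1.52. Sox9, a regulator of bile duct identity, differed by -0.66 and keratin 7 (Krt7) by 0.00. Krt19 measured -0.04 in natural aging, -0.31 in aging diabetes, -0.53 with metformin and -2.47 with APS plus metformin, so here the APS plus metformin array stood apart from the other 3. Of 17 oncofetal and imprinted genes, 8 were 2-fold lower, none was higher and the median was -0.92. Dlk1, a paternally expressed inhibitor of differentiation, stood at -4.24 in aging diabetes, 0.53 with metformin and -2.42 with APS plus metformin, and was not well above background in natural aging. Igf2, the fetal growth factor of an imprinted locus, stood at -2.65, 0.95 and -0.91 in the same 3 groups. Afp, the fetal counterpart of albumin, measured -2.72 in natural aging, -0.84 in aging diabetes, 1.37 with metformin and -0.42 with APS plus metformin. These 3 were highest on the metformin array and kept an intermediate level with APS, above both untreated arrays. Meg3 and Rian, non-coding RNAs of the Dlk1 locus, were 2.44-fold and 2.81-fold lower, while H19, next to Igf2, differed by -0.87 and Peg3 by 0.39.

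The largest differences of all were in digestive enzymes of the exocrine pancreas. Of 18 pancreatic acinar markers compared, 16 were at least 2-fold lower, none was higher and the median was -3.35. Ctrb1, a chymotrypsinogen, measured 3.58 in natural aging, -0.06 in aging diabetes, 1.72 with metformin and -4.69 with APS plus metformin. Cela3a, an elastase, measured 2.65, -2.06, 0.50 and -4.49, and colipase (Clps), the cofactor of pancreatic lipase, 2.65, -1.45, 0.65 and -2.63. In all 3 the natural aging array was the highest and the APS plus metformin array the lowest. The differences were 85.0-fold for Ctrb1, 32-fold for Cela3a and 9.74-fold for Clps. Trypsinogen genes were at least 109-fold lower for Prss2 and 106-fold for Try5, but these near-identical copies can share signal and are not independent. All 18 markers were well above background with metformin against 8 with APS plus metformin, and their summed level was 120 in natural aging, 13.6 in aging diabetes, 30.2 with metformin and 5.71 with APS plus metformin. Islet genes differed less, with 1 of 5 compared past 2-fold: Ins1 and Ins2, the insulin genes, by -0.47 and -0.13, with Ppy at least 3.85-fold lower. Of the 5, 3 are bounds. The islet genes Iapp and Chga stood at -4.51 and -4.64 with metformin. The lowest detected level with APS plus metformin was -4.84, so their bounds could only be small. Whether pancreatic tissue entered the samples was not tested.

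Adipocyte markers gave a mixed picture. The 3 lower of 8 compared were adipsin (Cfd), a serine protease of the alternative complement pathway, 13.9-fold with -3.44 by its other probe, and the lipid droplet proteins Cidea and Cidec, 4.23-fold and 3.74-fold, which steatotic hepatocytes also express. Cfd measured -3.05 in natural aging, -2.67 in aging diabetes, -0.38 with metformin and -4.17 with APS plus metformin. Adiponectin (Adipoq) differed by 0.30, leptin (Lep) by 0.15 and Fabp4, a fatty acid carrier, by 0.40. Muscle markers had 1 of 7 higher, the myosin Myh4, at least 2.44-fold but with -0.15 by its other probe, and 1 lower, the troponin Tnni2, at least 3.48-fold. Each was measured on 1 array only, and the list's median of -0.13 turned to 0.03 with each array's median subtracted. Over all 9 usable adipocyte markers the summed level was 19.8 with metformin and 17.6 with APS plus metformin. Without Fabp4, which had no usable aging diabetic value, the sums were 7.09 in natural aging, 7.87 in aging diabetes, 10.9 with metformin and 5.85 with APS plus metformin.

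**Figure D4:**
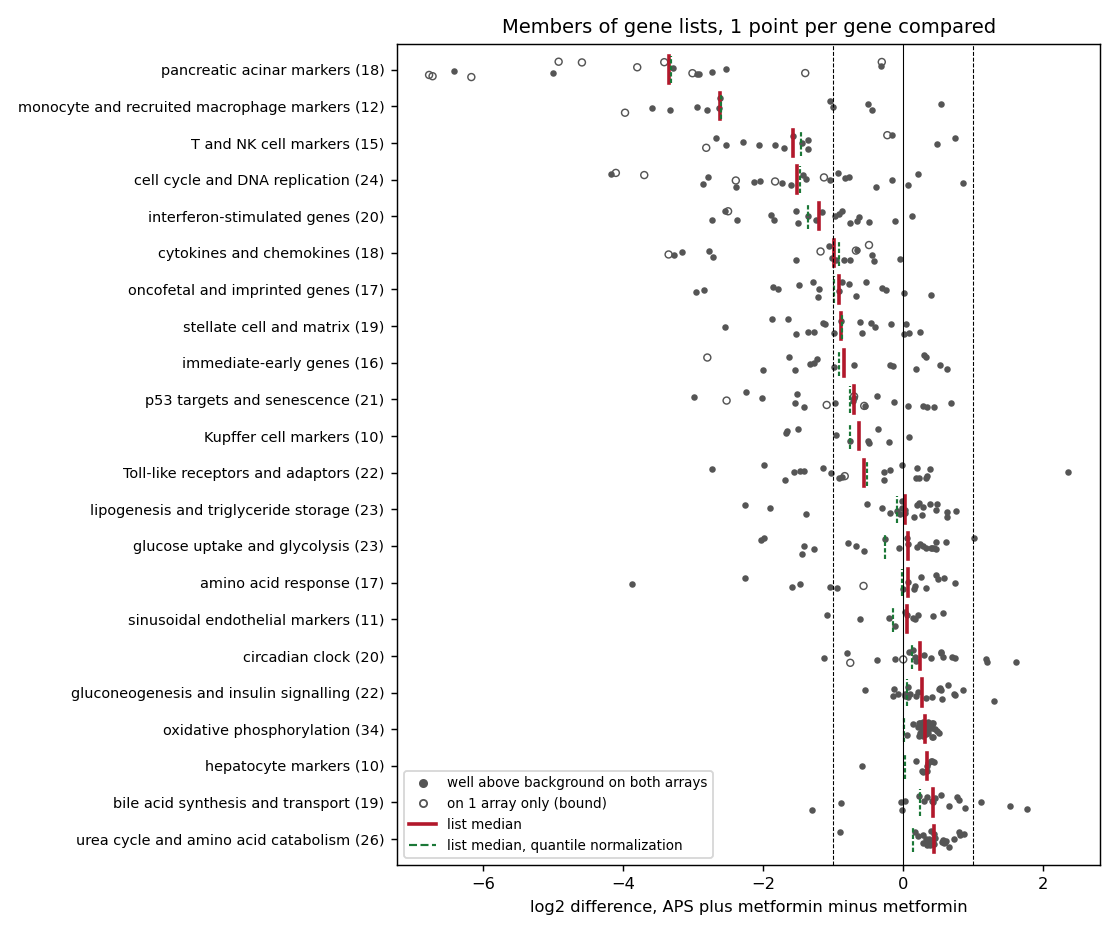
Log2 difference (x axis, APS plus metformin minus metformin) of every compared member of 22 gene lists (y axis, with the number of members compared); filled points were well above background on both arrays and open points are bounds. The median (red bar) runs from -3.35 for pancreatic acinar markers to 0.43 for urea cycle genes, and quantile normalization (dashed green bar) brings the medians of bright lists such as oxidative phosphorylation close to 0.

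Among genes of glucose handling few reached 2-fold. Of 22 gluconeogenesis and insulin signalling genes, 1 was 2-fold higher, none was lower and the median was 0.27. Ppargc1a, the coactivator of fasting gluconeogenesis and mitochondrial genes, measured 1.12 in natural aging, 0.97 in aging diabetes, 1.37 with metformin and 2.66 with APS plus metformin, 2.45-fold higher with APS. Among its target genes of glucose output, G6pc, the final step, differed by 0.03 ± 0.16, Pck1 by 0.51 and Fbp1 by 0.33. These targets have mean levels above 3, where only 0.083% of all genes compared were 2-fold higher. Their smaller differences therefore do not show whether they followed Ppargc1a. Irs2, the insulin receptor substrate of liver, measured 2.15, 1.1, 0.61 and 1.45 and was 1.80-fold higher, while Irs1 differed by -0.13 and the insulin receptor Insr by -0.08.

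Glucose uptake and glycolysis had 5 lower and 1 higher of 23 genes, and its median of 0.06 turned to -0.26 after quantile normalization. Pklr, the liver pyruvate kinase, measured 0.69 in natural aging, -0.56 in aging diabetes, -0.55 with metformin and -2.0 with APS plus metformin, a difference of -1.45 ± 0.17. It was lowest on the APS plus metformin array and near equal on the aging diabetic and metformin arrays. Pfkfb4, a regulator of glycolytic flux, was 3.98-fold lower, and the hexokinases of other cell types, Hk2 and Hk3, were 2.67-fold and 2.42-fold lower, with Hk3 at -0.25 by its other probe. Slc2a2, the hepatocyte glucose transporter, was the member that stood higher, 2.02-fold, at the threshold, with 0.96 after normexp background correction.

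One glycogen gene stood far from the rest. Ppp1r3g, a subunit that directs protein phosphatase to glycogen and is known to vary with feeding, measured 2.21 in natural aging, -0.87 in aging diabetes, -1.16 with metformin and 2.13 with APS plus metformin. It was 9.76-fold higher with APS, at the level of the natural aging array. Of the 14 glycogen genes compared 2 were lower, or 14.3% against 12.2% of all genes compared. These were Ppp1r3d at -1.15 and Pygb by a bound, and both came within 2-fold after normexp correction, at -0.66 and -0.68. The related subunits Ppp1r3b and Ppp1r3c differed by 0.17 and -0.89, and glycogen phosphorylase (Pygl) by 0.19. The list's median of 0.12 turned to -0.14 after quantile normalization.

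AMPK subunits and metformin transporters showed little difference. Of 13 compared, 1 was 2-fold lower, Tbc1d1, a target of AMPK, at -1.05, and it came to -0.70 when the probes of a gene were averaged. The catalytic subunits Prkaa1 and Prkaa2 differed by -0.27 and 0.82, the latter with -0.59 by its other probe. The efflux transporter Slc47a1 differed by 0.19. The median of the list was 0.03, or -0.15 after quantile normalization.

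Of 23 lipogenesis and triglyceride storage genes compared, 3 were 2-fold lower and none was higher, with a median of 0.03 that came to -0.08 after quantile normalization. Cidec, which enlarges lipid droplets, measured 1.45 in natural aging, 1.73 in aging diabetes, 1.72 with metformin and -0.18 with APS plus metformin. Pnpla3, a droplet lipase-like protein driven by insulin and feeding, measured 0.37, -0.22, -0.52 and -2.78, and its other probe gave -0.60 against -2.26. Mogat1, an enzyme of triglyceride assembly, measured -2.48, 0.97, 2.23 and 0.84, so it was highest on the metformin array and near the aging diabetic level with APS. The lipogenic regulators Srebf1 and Mlxipl differed by -0.04 ± 0.16 and 0.22 ± 0.16, the carboxylases Acaca and Acacb by -0.18 and -0.02, and Acly, which makes cytosolic acetyl-CoA, by 0.63. The 3 other probes of Acaca ranged from -1.11 to 0.16. For Scd1 and Fasn, the desaturase and the fatty acid synthase, the only spots carried an outlier flag on at least 1 of the 2 arrays. With outlier spots kept, Scd1 measured 4.28 in natural aging, 3.48 in aging diabetes, 3.30 with metformin and 0.06 with APS plus metformin, and Fasn differed by -0.41.

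Fatty acid oxidation genes under PPAR-alpha differed little, as did other bright genes. Their median level was 3.04 with metformin and 3.34 with APS plus metformin. Of 25 compared, 1 was 2-fold lower and none higher: Pdk4, the kinase that restrains glucose oxidation, measured 2.21 in natural aging, -0.14 in aging diabetes, 1.82 with metformin and 0.79 with APS plus metformin. Its difference of -1.04 came to -0.87 with each array's median subtracted. Cpt1a, the entry step of fatty acids into mitochondria, differed by 0.29 ± 0.16 and Ppara by 0.21 ± 0.16. The list's median of 0.18 turned to -0.08 after quantile normalization.

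Genes of bile acid synthesis were among the few groups with several higher members. Of 19 compared, 3 were 2-fold higher, 1 was lower and the median was 0.42, or 0.23 after quantile normalization. Cyp7a1, whose reaction limits how fast bile acids are made, measured -1.09 in natural aging, 2.5 in aging diabetes, 1.78 with metformin and 2.89 with APS plus metformin. Cyp8b1, which directs synthesis to cholic acid, measured 0.90, 1.68, -0.24 and 1.30. Cyp27a1, the first enzyme of the alternative pathway, measured 1.23, 1.16, 0.61 and 1.5 and was 1.85-fold higher. For all 3 the metformin array lay below the aging diabetic array and the APS plus metformin array above the metformin array. The differences were 1.11 ± 0.16 for Cyp7a1, 0.97 after quantile normalization, and 1.53 ± 0.16 for Cyp8b1. Akr1d1, which reduces the sterol ring, was 3.42-fold higher by its brighter probe and 0.07 by its other. Slc51b, a subunit of the basolateral bile acid exporter, was 2.48-fold lower, and Nr0b2, the repressor SHP of Cyp7a1, differed by -0.89. Both are targets of the bile acid receptor Nr1h4 (FXR), which itself differed by 0.42. The sterol exporters Abcg5 and Abcg8 differed by 0.66 and 0.76, and the canalicular pump Abcb11 by 0.23.

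Cholesterol synthesis genes had 1 of 23 members lower, Mvd at -1.04, and none higher. Mvd came to -0.87 with each array's median subtracted and -0.94 with loess. The median of -0.07 turned to 0.10 when each array's median was subtracted. The regulator Srebf2 differed by 0.00.

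**Figure D5:**
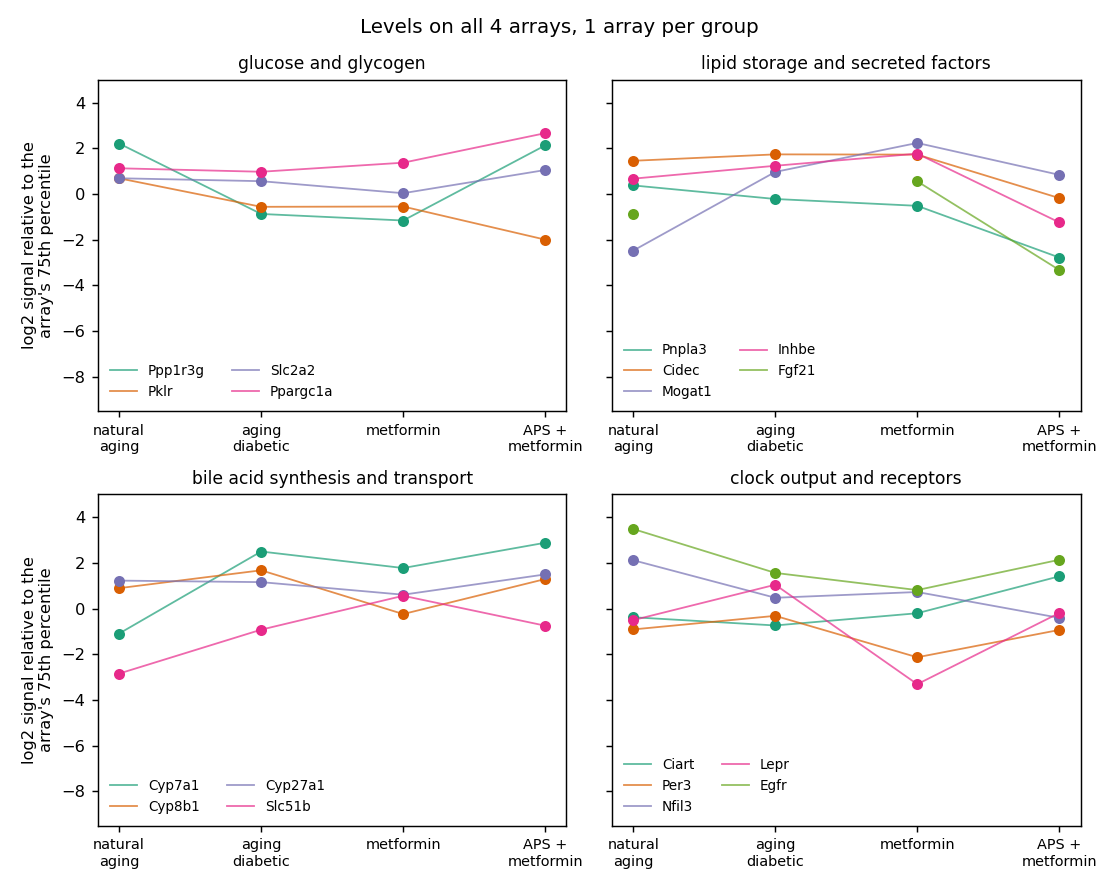
Log2 level relative to the array's 75th percentile (y axis) on each of the 4 arrays (x axis, 1 array per group) for metabolic genes, with lines joining the points of 1 gene; the aging diabetic level of Fgf21 is left out because its spot carried an outlier flag. Ppp1r3g stands at -1.16 with metformin and 2.13 with APS plus metformin, while Pklr goes from -0.55 to -2.0.

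Fgf21, Inhbe and Gdf15, secreted factors of the stressed liver, were each lower with APS. Fgf21, a hormone that hepatocytes release under fasting, amino acid lack and mitochondrial stress, measured -0.86 in natural aging, 0.55 with metformin and -3.33 with APS plus metformin. Inhbe, the hepatokine activin E subunit, measured 0.67 in natural aging, 1.23 in aging diabetes, 1.76 with metformin and -1.24 with APS plus metformin. Gdf15, a stress cytokine that metformin is known to raise in blood, measured 0.37, 1.88, 2.61 and 1.56. All 3 were highest on the metformin array among the arrays that gave a value, with differences of -3.88 ± 0.19, -3.01 ± 0.17 and -1.04 ± 0.16, and Gdf15 came to -0.88 with each array's median subtracted.

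Of 17 amino acid response genes, which act downstream of the factor Atf4, 5 were 2-fold lower and none higher. Besides Fgf21 and Gdf15 these were the serine and asparagine enzymes Psat1 at -2.26, with -0.06 by its other probe, and Asns at -1.59, and the mitochondrial folate enzyme Mthfd2 at -1.47. The median of 0.07 turned to -0.01 after quantile normalization, and Trib3 differed by 0.00, Phgdh by 0.07, Sesn2 by 0.16 and Chac1 by 0.74. Atf4 mRNA differed by 0.18 and its partner Ddit3 by -1.05, or -0.88 with each array's median subtracted. Of 24 endoplasmic reticulum genes, 2 were lower, Derl3 at -1.54 and Ddit3, and Hspa5, the main chaperone of that compartment, differed by 0.02. The median of that list, 0.11, turned to -0.11 after quantile normalization.

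Of 21 heat shock and chaperone genes compared, 2 were lower and none higher, and both encode the inducible form of Hsp70. Hspa1b measured 3.75 in natural aging, 3.19 in aging diabetes, 0.45 with metformin and -0.66 with APS plus metformin, and its near-identical copy Hspa1a 1.83, 1.79, -1.23 and -3.22. Signal may be shared between these copies, and the 2-fold difference of Hspa1b came to -0.94 with each array's median subtracted. The median of the list was 0.11, or -0.13 after quantile normalization.

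The receptors for leptin and for epidermal growth factor stood higher. Lepr, the leptin receptor, measured -0.50 in natural aging, 1.05 in aging diabetes, -3.31 with metformin and -0.19 with APS plus metformin, 8.67-fold higher with APS and 2.72 by its other probe. The metformin array was the one that stood apart. Leprot, a gene that overlaps Lepr, differed by -0.22, with -1.02 by its other probe. Egfr, the epidermal growth factor receptor of hepatocytes, measured 3.49, 1.57, 0.81 and 2.14, 2.51-fold higher, with 0.39 and 1.2 by its 2 other probes. Of the 21 genes of the growth hormone and growth factor receptor axis these 2 were higher and 2 were lower, Fgf21 and Inhbe. The growth hormone receptor Ghr differed by 0.35, Igf1 by 0.21 and the signal transducer Stat5b by 0.22. For Socs2, a target of Stat5b, the only spots carried an outlier flag, and with them kept it differed by 1.63.

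Sex-dependent liver genes, which follow the growth hormone pattern, differed in both directions. Of 22 genes higher in female liver, 3 stood higher and 5 lower on the APS plus metformin array, and of 21 genes higher in male liver 1 stood higher, Egfr, and 6 lower. Cux2, a female-biased repressor of male genes, measured -3.89 in natural aging, -1.32 in aging diabetes, -2.33 with metformin and -0.75 with APS plus metformin. Cyp17a1, a steroid hydroxylase, measured -3.41, 1.85, 0.81 and 2.06, and Fmo2, a monooxygenase, -0.07, 1.2, 1.46 and 2.65. Cux2 was 2.99-fold, Cyp17a1 2.37-fold and Fmo2 2.29-fold higher. Hao2, a hydroxyacid oxidase, was the largest in the other direction, 10.9-fold lower, with -3.82 in natural aging, -4.29 in aging diabetes, -0.16 with metformin and -3.61 with APS plus metformin. Gpc1, Slc22a27, Sult3a1 and A1bg of the same list were lower too, by -1.99, -1.48, -1.41 and -1.28. Among male-biased genes the complement regulator Susd4 was 5.81-fold lower, the fatty acid elongase Elovl3 4.21-fold, the hydroxylases Cyp4a12b and Cyp4a12a 3.96-fold and 3.08-fold and the transporter Slco1a1 2.19-fold. Cyp4a12a and Cyp4a12b are close copies that can share signal. Cyp2d9, another male-biased enzyme, differed by 0.36 and Mup20, a pheromone carrier, by -0.13. The medians were 0.19 for the female-biased and 0.07 for the male-biased list, and came to 0.01 and -0.05 after quantile normalization.

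Circadian clock genes had 3 higher and 1 lower of 20 compared, with a median of 0.23. Ciart, a repressor of the clock, measured -0.38 in natural aging, -0.73 in aging diabetes, -0.20 with metformin and 1.42 with APS plus metformin. Per3 measured -0.91, -0.31, -2.13 and -0.93, and the deubiquitinase Usp2 stood at 1.06 with metformin and 2.25 with APS plus metformin. Ciart was 3.06-fold, Per3 2.29-fold and Usp2 2.28-fold higher, and the other probes of Ciart and Usp2 gave 1.49 and 1.16. Nfil3, which opposes the D-box activators, was 2.19-fold lower, or -0.96 with each array's median subtracted. The D-box activators Dbp and Tef differed by 0.54 and 0.74, Nr1d1 by 0.54, Nr1d2 by 0.70 and Per1 by 0.09. Per2 differed by -0.80, with 0.06 by its other probe. Arntl, close to background, was not well above it on the APS plus metformin array. The hour of tissue collection is not given in the sources used here, and its part in these differences was not tested.

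Few drug-metabolising enzymes reached 2-fold, but these lists are bright. The cytochrome P450 list had median levels of 3.27 with metformin and 3.72 with APS plus metformin. For conjugating and antioxidant genes these were 3.33 and 3.48. Of all genes with a mean level of 3 or more, 0.083% were 2-fold higher and none lower, so low counts are not particular to these enzymes. Of 21 cytochrome P450 genes of families 1 to 3, 1 was higher, Cyp2g1 at 1.08, and 1 lower, Cyp2c55 at -2.34 with -0.97 by its other probe. Cyp3a11, the main inducible form, differed by 0.36, Cyp2b10 by 0.53 and Cyp2e1 by 0.43, and the list's median of 0.36 came to 0.04 after quantile normalization. Of 30 conjugating and antioxidant genes none differed 2-fold. Their median of 0.22 turned to -0.05 after quantile normalization, with haem oxygenase (Hmox1) lowest at -0.92 and the regulator Nfe2l2 at 0.62.

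Housekeeping and core hepatocyte programmes differed by about as much as other bright genes. All 34 oxidative phosphorylation genes compared lay above 0 and none reached 2-fold, with a median of 0.31, or 0.01 after quantile normalization. The 26 ribosomal protein genes had a median of 0.33, or 0.01 after quantile normalization. Urea cycle and amino acid catabolism genes had a median of 0.43, or 0.14 after quantile normalization, with none of 26 past 2-fold. Arginase (Arg1), the last step of the urea cycle, differed by 0.80, serine dehydratase (Sds) by 0.86 and Mat1a, which makes the methyl donor, by 0.82, while Csad, of taurine synthesis, differed by -0.91. Of 18 pericentral genes 1 was higher, the glutamate transporter Slc1a2 at 1.22, and glutamine synthetase (Glul) differed by 0.57. None of 11 periportal genes was past 2-fold. Of 22 acute-phase and complement genes 1 was lower, Saa3, an amyloid protein of macrophages and adipose tissue, at -1.38, against -0.46 for the hepatocyte form Saa1. The median of that list was 0.18, or -0.15 after quantile normalization. None of 17 iron genes and none of 7 erythroid markers was past 2-fold, hepcidin (Hamp) differing by 0.46 and the haemoglobin genes Hba-a1 and Hbb-bt by 0.37 and 0.19. Of 12 sirtuin and NAD genes 1 was lower, Nmnat3, of NAD synthesis, at -2.20, and Sirt1 differed by 0.09 ± 0.16 and Sirt3 by 0.40.

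Outside the lists, the largest positive difference between genes well above background on both arrays was that of Camk2b, a calmodulin-dependent kinase. It measured -0.92 in natural aging, 0.32 in aging diabetes, -3.15 with metformin and 0.44 with APS plus metformin, 12.0-fold higher, with 1.45 by its other probe. Mzt1, a component of the microtubule-nucleating complex, was 10.5-fold higher, and Ctps2, a CTP synthase, 7.48-fold with 1.13 and 1.24 by its 2 other probes. Cd207, the langerin of dendritic cells, measured 1.07 in natural aging, -1.09 in aging diabetes, -3.13 with metformin and 0.14 with APS plus metformin. For Camk2b, Ctps2 and Cd207 the metformin array was the lowest of the 4. Ifi202b, an interferon-inducible DNA sensor, was not well above background on the metformin array and was at least 27.4-fold higher, with 4.26 by its other probe. Of the 20 interferon-stimulated genes compared in the list above, 11 were 2-fold lower and none was 2-fold higher. Smad9 was 6.44-fold higher, and Gh, the pituitary hormone, 5.75-fold from a level of -4.32 on the metformin array. Ctbs, 6.14-fold higher, came to 0.38 with outlier spots kept.

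Among lower genes outside the lists, Mrap2, an accessory protein of melanocortin receptors, measured 1.25 in natural aging, -2.41 in aging diabetes, 1.61 with metformin and -2.09 with APS plus metformin, 13-fold lower. Sycn, a zymogen granule protein of pancreatic acinar cells, was 10.9-fold lower and measured 2.32, -2.05, 0.07 and -3.37. Tubb2b, a neuronal and fetal tubulin, was 15.6-fold lower, and Spon2, a secreted matrix protein, 12.8-fold. Guca2b, the gut peptide uroguanylin, was 12.8-fold and Slc26a4, an anion exchanger, 12.0-fold lower. Most of these genes stood highest on the metformin array, with Sycn the exception, whose level was highest in natural aging.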

How the data were processed

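Liver RNA of 4 groups was measured on 1 one-colour array each. The deposited array files hold spot intensity from Agilent Feature Extraction (10.7 per the labels, 11.5.1.1 per the file headers), background-subtracted within each array, with an error per spot and flags for background, saturation and outliers. The authors used GeneSpring for normalization, per the labels' protocols, and the deposited series table holds log2 values. All arrays lay on 1 slide in 1 scan, per the file headers.

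The log2 of the processed signal less each array's 75th percentile was taken in Python 3.11.15 (numpy 2.4.6, pandas 2.3.3, scipy 1.17.1). Spots of 300 probes spotted 10 times were averaged. Spots flagged as outliers on either of the 2 arrays compared were left out, so 959 genes had no usable probe. Transcript accessions without version gave 33767 of 56605 probes a symbol, through RefSeq's table. The brightest usable probe stood for a gene; other probes are reported beside it. Genes were counted from 2-fold, a log2 difference of 1 either way. A probe not well above background on 1 array gives a bound, for which its dim level was raised, where lower, to the minimum of that array's detected levels (-4.95 on the metformin, -4.84 on the APS plus metformin array). The arrays' number limits the precision, and the median error of a difference was 0.164.

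The comparison and its 48 gene lists were chosen with earlier results of these data known. Named genes are the 15 largest differences each way, the 5 largest bounds each way, up to 6 members of each list and 40 fixed genes; genes of unknown function were left out, and other list members named in the text were chosen after their values were seen. Alternatives were quantile normalization, median scaling, normexp (limma 3.58.1 in R 4.3.3, offset 50), the authors' deposited log2 table, outlier spots kept, the mean of a gene's probes, genes above background on both arrays and loess (span 0.3, statsmodels 0.14.6). The array files used hold no mean signal, so normexp ran on the median signal, a choice made after seeing the files. The procedure was tested on simulated data. Some members of the lists are counted but not reported here by name.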

Additional observations from a re-analysis of the deposited data

How the results depend on the processing

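No paired analysis was possible because each group has 1 array, and for the same reason no replicate could be left out. The count of lower genes stayed within 1.5 times its value under all 8 alternatives, and that of higher genes under 7; subtracting each array's median gave 608 higher and 1523 lower genes, 28.53% higher against 16.21%, and moved the median of all genes from -0.02 to 0.14. With quantile normalization the counts were 493 higher and 1757 lower, 484 and 1767 with the authors' deposited table, with normexp correction 305 and 1455, and with loess 507 and 1700. Medians of bright lists changed sign. Fatty acid oxidation came to -0.0753 with quantile normalization, -0.0712 with the authors' deposited table and -0.0243 with loess; conjugating and antioxidant genes to -0.0537, -0.0509 and -0.0117; acute-phase genes to -0.1527, -0.1380 and -0.1055. Erythroid markers came to -0.0235 with the mean of a gene's probes. Smug1, 7.85-fold higher with 0.30 by its other probe, came to -0.3587 with outlier spots kept. Under that setting a brighter probe with a flagged spot can stand for a gene. Of 173 named genes past 2-fold, 142 kept that and their direction under every alternative that gave them a value. Signal over background limits dim genes: 506 lower and 88 higher genes are bounds.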

Other observations

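Some values rest on spots with an outlier flag on 1 of the 2 arrays and were left out of the counts. With such spots kept, pancreatic lipase (Pnlip) stood at 3.27 in natural aging, -1.52 in aging diabetes, 0.78 with metformin and -4.52 with APS plus metformin. The mitotic kinase Cdk1 stood at -2.66, -2.10, -0.59 and -2.99. Cxcl10, an interferon-induced chemokine, stood at -0.72, -0.97, 1.37 and -0.79. Hamp2, a copy of hepcidin, stood at -2.30, -0.25, 2.34 and 0.68, where Hamp, measured on usable spots, stood at -2.75, 1.60, 2.97 and 3.43. Vnn1, a pantetheinase under PPAR-alpha, stood at -0.94, 1.24, 1.47 and 0.35.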
